A study of Mus musculus with 6 samples.

Results

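The nuclear receptors and coregulators described here are 37 genes, 30 receptors and 7 coregulators, of the 49671 genes counted in mouse liver. They were picked by name, as rows whose Ensembl gene ID maps to the listed symbols in the GENCODE annotation of GRCm38, and all 37 were found. The RNA came from livers of wild-type (WT) mice (3 libraries, replicates 1, 2 and 3) and of mice homozygous for a knockout of p75NTR, the neurotrophin receptor encoded by Ngfr (p75NTR KO, 3 libraries, replicates 1, 2 and 4). All mice were 6 months old, ate a standard diet and came from the same line, labelled B6.1129S4-Ngfr/J, in which the KO allele lacks an exon of Ngfr in every cell of the body. No cell type was sorted, so fewer cells of a type and less RNA per cell cannot be told apart in any result below.

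Nuclear receptors are transcription factors that bind DNA through zinc fingers and, in many cases, respond to a small lipid-soluble ligand such as a fatty acid, a bile acid, a steroid or a retinoid. In the liver, PPAR-alpha (Ppara) is the receptor of fasting, which turns on genes of fatty acid oxidation and ketone body synthesis as a pair with a retinoid X receptor (RXR). The liver X receptors, the farnesoid X receptor, the pregnane X receptor and the constitutive androstane receptor (CAR) pair with RXR as well, whereas HNF4-alpha binds as a pair with itself and maintains the identity of hepatocytes. Coactivators such as the Ncoa family and Med1 link bound receptors to the transcription machinery, and corepressors such as Ncor1 recruit histone deacetylases.

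The libraries held 27107209 to 31412855 counts in WT and 29784429 to 32664149 in KO. Levels are given as CPM, in which each count is taken relative to its library's TMM-scaled total, and for comparisons between genes as CPM per kb of exon. Ngfr had 133, 144 and 78 counts in WT and 53, 27 and 47 in KO, which checks the genotype labels only in part because the other exons of the allele can still be counted. Hepatocyte markers made up 125000 to 141000 CPM in WT and 118000 to 137000 CPM in KO (9 genes). Most of this was Alb, with 89100 to 103000 CPM in WT and 76200 to 93700 CPM in KO. Cps1 (2100 to 2310 CPM in WT, 3170 to 5040 in KO) was higher in every KO library than in any WT library. So were Ass1 (863 to 1130 and 1480 to 2380 CPM) and Fgb (3840 to 4110 and 5490 to 5560 CPM). The ranges of the other markers overlapped. The library of KO replicate 4 stood apart: the first principal component, with 39.3% of the variance, placed it at 64.6 and the other 5 libraries between -18.4 and -9.28. Its Y-linked genes (4 genes) summed to 162 CPM, against at most 0.0725 CPM in any other library, WT or KO. Its female-biased liver genes (10 genes) summed to 17.5 CPM. They summed to 2400 to 3330 CPM in WT and to 1820 and 1780 CPM in KO replicates 1 and 2. The sex of the mice was not given in the sources used here. If that of KO replicate 4 differed from the other 5, the KO group mixes sexes and the WT group does not. Genotype and sex then cannot be told apart in that library. Counts and the main values are therefore given with and without KO replicate 4.

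Sequence just upstream of a RefSeq start is shown for Ppara, on which the comparison centres. It is also shown for the genes with the smallest p in each direction. These are Nr1i3 (CAR, lower in KO) and Nr4a1 (an immediate early receptor, higher in KO). The letters are the 250 bases before the RefSeq start on the plus strand of GRCm38.p6, at chr15:85735526-85735775 for Ppara, chr1:171213720-171213969 for Nr1i3 and chr15:101266596-101266845 for Nr4a1. Capitals mark TGACG, the core of the cyclic AMP response element, or its reverse complement CGTCA in Ppara and Nr4a1, and the E-box CACGTG in Nr1i3.
Ppara: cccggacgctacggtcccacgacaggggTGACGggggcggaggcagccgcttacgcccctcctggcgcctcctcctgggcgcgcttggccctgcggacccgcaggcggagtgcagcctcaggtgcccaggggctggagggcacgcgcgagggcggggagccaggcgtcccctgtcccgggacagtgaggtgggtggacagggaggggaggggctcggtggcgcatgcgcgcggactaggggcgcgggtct
Nr1i3: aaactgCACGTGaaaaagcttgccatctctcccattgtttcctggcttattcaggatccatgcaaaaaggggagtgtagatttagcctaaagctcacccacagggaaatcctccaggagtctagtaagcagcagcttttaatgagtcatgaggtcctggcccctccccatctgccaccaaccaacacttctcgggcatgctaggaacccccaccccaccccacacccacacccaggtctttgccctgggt
Nr4a1: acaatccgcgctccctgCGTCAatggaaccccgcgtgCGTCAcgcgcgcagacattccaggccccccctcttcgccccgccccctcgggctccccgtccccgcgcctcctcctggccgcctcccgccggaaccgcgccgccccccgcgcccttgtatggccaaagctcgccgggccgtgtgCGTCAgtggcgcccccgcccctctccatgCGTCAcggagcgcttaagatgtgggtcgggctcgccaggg
The windows of Ppara and Nr4a1 are rich in G and C (76.4% and 74.4%), that of Nr1i3 less so (53.2%). RefSeq windows were found for 32 of the 37 genes, and other starts may be used in liver. The windows of Ppara and Nr4a1 lie inside the GENCODE spans of these genes, which begin further upstream, at 85734983 and 101254269 on chromosome 15.

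Both strands were searched for 4 motifs. They were AGGTCA, the hexamer that most of these receptors bind, its direct repeat with 1 base of any kind between the copies, which PPAR binds with RXR, and the TGACG and CACGTG motifs. The hexamer AGGTCA matched in 7 of the 32 windows (Nr1h4, Nr5a2, Nr6a1, Pparg, Rarg, Rxra and Rxrg), against 14% of all 32851 windows of this length, and it is also part of the direct repeat. The direct repeat matched in 0 of the 32 windows and in 0.0335% of all. TGACG matched in 8 of the 32 windows, against 17.8% of all. The Nr4a1 window held 4 of these matches, a number reached by 0.137% of all windows, and that of Ppara held 1. CACGTG matched in the windows of Nr1i3 and Rara, against 6.02% of all. The window of Nr3c2, the mineralocorticoid receptor gene, held none of the 4. A match describes the letters and not a bound site.

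WT livers held the 37 genes at very different levels. Hnf4a was the highest, at 174 ± 40.6 CPM per kb (SD, n = 3), followed by Rxra at 114 ± 13.2, Nr1i3 at 85.1 ± 11.6, Nr1h4 (farnesoid X receptor, the bile acid sensor) at 66.4 ± 10.1 and Nr2f6, an orphan receptor of the COUP-TF family, at 59.2 ± 2.52 CPM per kb. Nr1h3, which encodes liver X receptor alpha, an oxysterol sensor, had 49.8 ± 4.22 CPM per kb. Ppara was the 7th of the 37, at 37.1 ± 5.07 CPM per kb, beside Nr1i2 (pregnane X receptor) at 35.8 ± 9.83. The highest and lowest of the 35 genes that passed the filter on low counts differed 882-fold in WT level per kb. In all, 11 genes lay above 10 CPM per kb, 19 between 1 and 10, and 7 below 1.

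Most of the first places of that order were separated beyond the spread of the WT libraries, some narrowly, and most of the later ones were not. The lowest WT library for Hnf4a had 127 CPM per kb, for example, and the highest for Rxra 126. WT ranges did not overlap between Hnf4a and Rxra, Rxra and Nr1i3, Nr1i3 and Nr1h4, Nr2f6 and Nr1h3, or Nr1h3 and Ppara. Of the 36 neighbouring pairs in the order, 14 had ranges apart and 22 overlapped, among them Nr1h4 with Nr2f6 and Ppara with Nr1i2. The order changed little with the length used: divided by the longest transcript instead of all exons, no gene moved by more than 6 places. By that length, however, Rxra (127 CPM per kb) and Nr1i3 (126) were nearly level, and Nr2f6 (79.7) passed Nr1h4 (76.0). In KO livers the order moved by at most 5 places, which was Nr3c2, from 22nd in WT to 27th in KO.

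The coregulators lay in the middle of this range, among many of the receptors. Their 7 WT levels were between 1.46 CPM per kb (Ppargc1b, which encodes PGC-1-beta, an activator of mitochondrial genes) and 9.31 CPM per kb (Ncor1). The 3 Ncoa genes, which encode the p160 coactivators, lay close together at 2.63 to 3.48 CPM per kb. At the low end, Nr4a1, Nr2f1 and Nr4a2 had 0.418, 0.228 and 0.197 CPM per kb in WT. Hnf4g and Vdr, which encodes the vitamin D receptor, fell below the filter with at most 0.278 CPM and 0.254 CPM in any library, and were not tested.

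**Figure D1:**
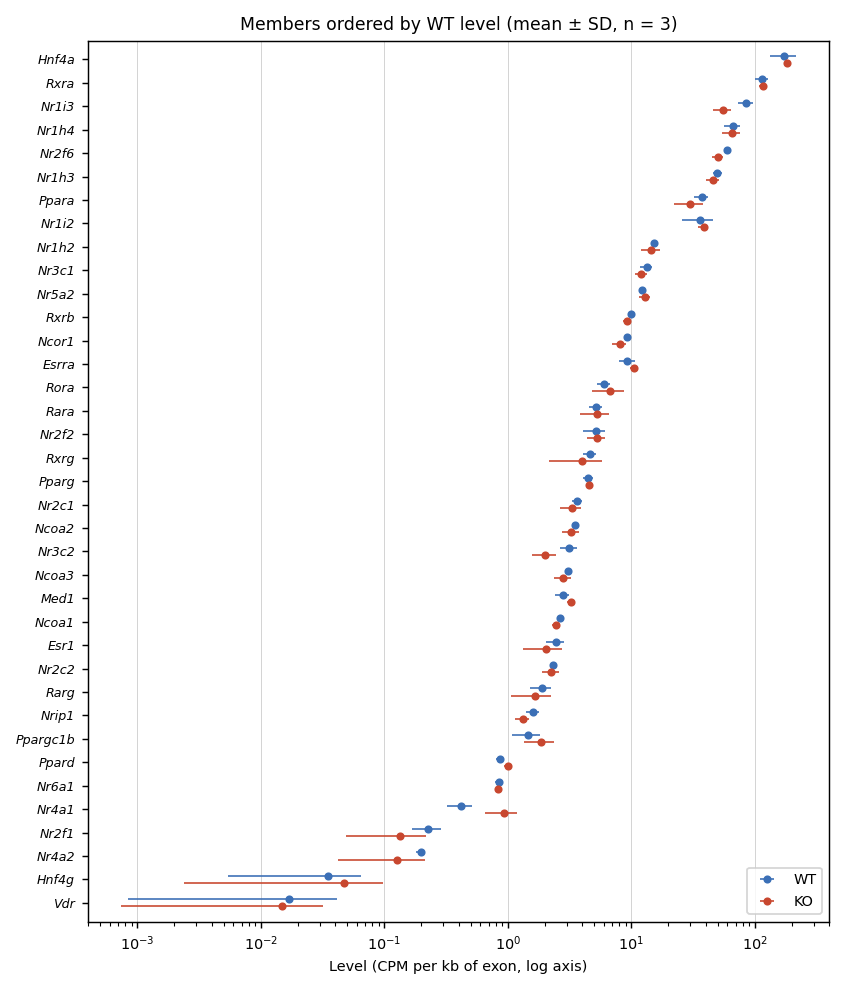
Levels of the 37 genes in CPM per kb of exon on a log axis, ordered by their WT mean, with WT in blue and KO in red (mean ± SD, n = 3 libraries each). The order runs from Hnf4a at 174 CPM per kb to Vdr at 0.0169 CPM per kb in WT, and the WT and KO points lie close together for most genes, with visible gaps for Nr1i3, Nr3c2 and Nr4a1.

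The main comparison asked whether Ppara or its partners differ in RNA between KO and WT livers. By edgeR's quasi-likelihood test on all 6 libraries, 0 of the 35 genes tested were higher and 0 lower at an adjusted p under 0.05, as for all 13773 genes tested (0% higher and 0% lower). At an unadjusted p under 0.05, 1 gene (Nr4a1) was higher and 2 (Nr1i3 and Nr3c2) were lower, against 3.7% and 3.48% of all genes. DESeq2, the tool the authors used, called 0 of the 35 higher and 1, Nr1i3, lower, against 0.523% and 0.536% of all genes, and limma-voom called 0. Positive log2 fold changes were given by 13 genes and negative ones by 22. Their median was -0.09 and the median of all genes was -0.00, while the median size of the change was 0.15 in both. For 26 of the 35 genes the log2 fold change was smaller than 0.25 in either direction, and for 30 the whole 95% interval lay within 1 log2 unit of no change.

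**Figure D2:**
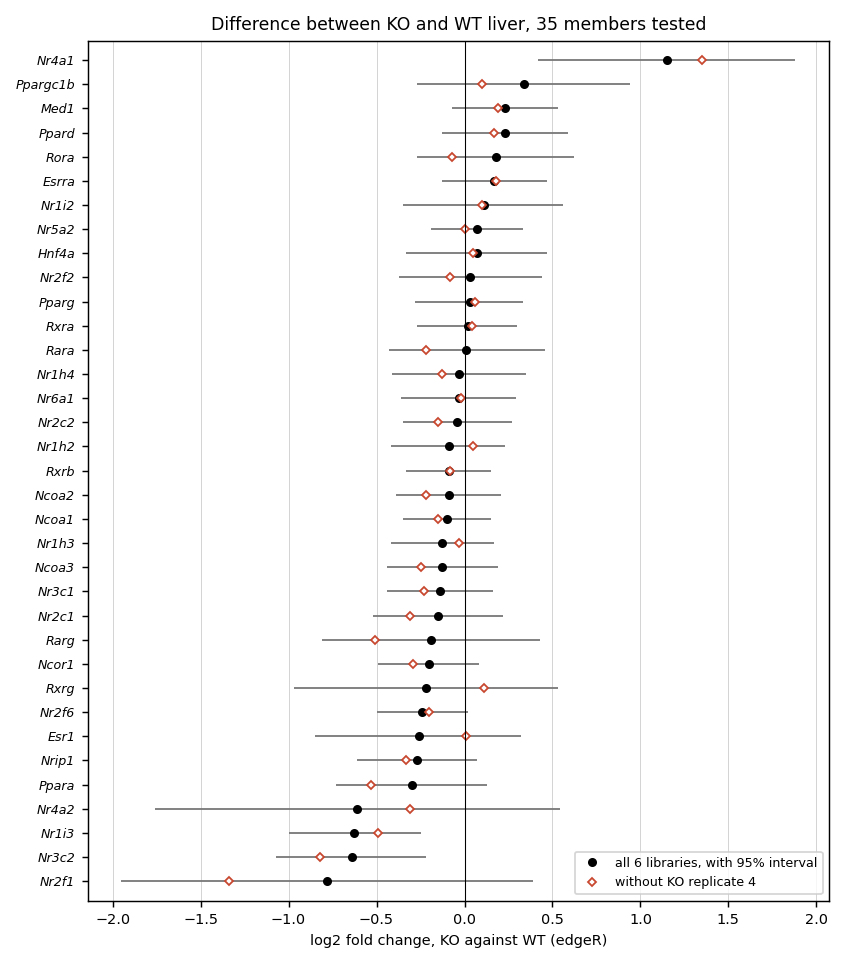
Log2 fold change of KO against WT by edgeR for the 35 genes tested, from all 6 libraries (black, with 95% interval) and without KO replicate 4 (red diamonds). Only the intervals of Nr4a1 (1.15), Nr1i3 (-0.63) and Nr3c2 (-0.64) exclude 0, and the points of several genes, Ppara, Rxrg and Rora among them, move when KO replicate 4 is left out.

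Leaving out KO replicate 4 moved several genes toward lower values in KO and others, Rxrg, Esr1, Nr4a2 and Nr1i3 among them, toward higher ones. The median log2 fold change of the 35 genes was -0.08 without it and -0.09 with it. By edgeR on the other 5 libraries, 0 of the 35 were still called in either direction, against 0.355% of all genes higher and 0.454% lower. At an unadjusted p under 0.05, 1 gene (Nr4a1) was higher and 6 (Ppara, Rarg, Nr1i3, Nr3c2, Nr2f1 and Ncor1) were lower, against 5.64% and 6.5% of all genes. DESeq2 on these 5 libraries called 1 gene higher (Nr4a1) and 3 lower (Ppara, Nr1i3 and Nr3c2), against 1.29% and 1.71% of all genes. The CPM ranges of WT and KO did not overlap for 3 genes with higher and 14 with lower KO levels among these 5 libraries, where all genes gave 14.5% and 15.6%. With all 6 libraries they did not overlap for 2 higher (Ppard and Nr4a1) and 3 lower genes (Nr1i3, Nr3c2 and Nr2f6), against 6.02% and 6.36% of all genes. KO replicate 4 lay outside the range of the other 5 libraries for 18 of the 35 genes, as the highest for 12 and the lowest for 6, and for 42.8% of all genes.

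Ppara, on chromosome 15 of GRCm38 from 85734983 to 85802819, had 160, 145 and 122 CPM in WT replicates 1, 2 and 3. In KO it had 101, 95.6 and 149 CPM in replicates 1, 2 and 4. KO replicates 1 and 2 thus lay below every WT library, while KO replicate 4 lay between WT replicates 1 and 2, so that the groups overlapped. The log2 fold change was -0.30 (standard error 0.19, 95% interval -0.73 to 0.13, adjusted p = 0.851 by edgeR and 1 by DESeq2), a KO level of 0.812 times WT (0.601 to 1.10). Without KO replicate 4 it was -0.53 (standard error 0.14, interval -0.83 to -0.22), with an adjusted p of 0.153 by edgeR and 0.0226 by DESeq2. So the RNA of Ppara was not called changed in the full set, and whether it was called in the 5 libraries depended on the test.

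The other PPAR genes did not follow Ppara. Ppard, which encodes the broadly expressed PPAR-delta, had 6.20, 6.30 and 6.88 CPM in WT and 7.28, 7.23 and 8.20 CPM in KO. Every KO library was higher than every WT library, but the difference was small, with a log2 fold change of 0.23 (95% interval -0.13 to 0.59, adjusted p = 0.868 by edgeR). Without KO replicate 4 it was 0.17. Pparg, the receptor of fat cell formation, had 13.7, 11.8 and 14.3 CPM in WT and 13.2, 14.4 and 12.9 CPM in KO. Its groups overlapped, with a log2 fold change of 0.03 (interval -0.28 to 0.33) and 0.06 without KO replicate 4.

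The RXR genes, partners of the PPARs, gave no called difference. Rxra, the most abundant of the family at 114 CPM per kb in WT against 9.93 for Rxrb and 4.64 for Rxrg, had 687, 642 and 546 CPM in WT and 679, 602 and 617 CPM in KO. All KO values lay inside the WT range, with a log2 fold change of 0.02 (95% interval -0.27 to 0.30), or 0.829 to 1.23 times the WT level. Rxrb had 38.6, 39.8 and 40.1 CPM in WT and 34.3, 40.0 and 36.6 CPM in KO, a log2 fold change of -0.09 (interval -0.33 to 0.15) and, without KO replicate 4, of -0.08. Rxrg had 11.6, 9.25 and 11.1 CPM in WT, and 10.4 and 12.5 CPM in KO replicates 1 and 2. KO replicate 4 had 4.46 CPM, the lowest of the 6, and the log2 fold change of -0.22 (interval -0.97 to 0.53) became 0.11 without it. Summed over the family, RXR RNA was 597 to 737 CPM in WT and 654 to 723 CPM in KO.

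**Figure D3:**
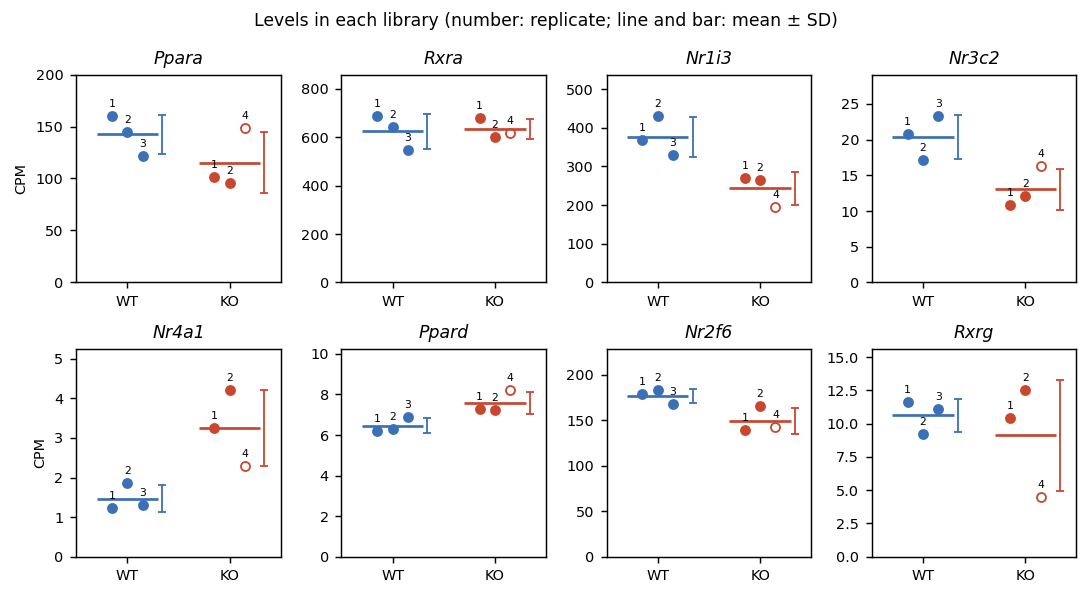
CPM in each library for 8 genes, WT in blue and KO in red, with the replicate number above each point, an open circle for KO replicate 4, and the mean ± SD of each group (n = 3). Ppara is lower in KO replicates 1 and 2 only, Rxra overlaps fully, Nr1i3, Nr3c2 and Nr2f6 are lower and Nr4a1 and Ppard higher in every KO library, and Rxrg is low in KO replicate 4.

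Among the sensors of bile acids, sterols and foreign compounds, Nr1i3 stood out with lower levels in KO. Nr1i3 encodes CAR, which turns on cytochromes P450 and conjugating enzymes and lies on chromosome 1 from 171213970 to 171220701. It had 368, 430 and 329 CPM in WT replicates 1, 2 and 3, and 271, 264 and 195 CPM in KO replicates 1, 2 and 4. Every KO library was below every WT library, and KO replicate 4 was the lowest of the 6. The KO level was 0.647 times WT (95% interval 0.499 to 0.839), a log2 fold change of -0.63 (standard error 0.16) with an adjusted p of 0.350 by edgeR and 0.0308 by DESeq2. In the other 5 libraries it was -0.49 (adjusted p = 0.180 by edgeR and 0.0332 by DESeq2). Its exons share 3304 bases with Tomm40l on the opposite strand. Over the 6 libraries Tomm40l had 1976 counts and Nr1i3 56573, and whether reads in the shared bases bear on the difference was not tested.

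The other 4 genes of this group had smaller differences. The log2 fold change was 0.11 (95% interval -0.35 to 0.56) for Nr1i2, the pregnane X receptor that shares many targets with CAR, and -0.03 (-0.41 to 0.35) for Nr1h4. For the liver X receptors it was -0.13 (-0.42 to 0.17) for Nr1h3 and -0.09 (-0.42 to 0.23) for Nr1h2. The Nr1h2 level of KO replicate 4, 38.7 CPM, was the lowest of the 6, whereas the other 5 libraries lay between 49.1 and 53.5 CPM. Nr1i2 varied most between WT libraries in this group, from 63.3 to 112 CPM. With KO replicate 4 left out the values were 0.10 for Nr1i2, -0.13 for Nr1h4, -0.03 for Nr1h3 and 0.05 for Nr1h2.

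The ranges of WT and KO overlapped for the receptors of hepatocyte identity. Hnf4a had 615 to 971 CPM in WT and 833 to 918 CPM in KO, a log2 fold change of 0.07 (95% interval -0.33 to 0.47). Nr5a2, which encodes LRH-1, a regulator of bile acid synthesis, had 70.6 to 74.0 CPM in WT and 67.5 to 84.1 CPM in KO (0.07, interval -0.19 to 0.33). With KO replicate 4 left out the values were 0.05 and -0.00. WT replicate 3, at 615 CPM, was the lowest library for Hnf4a, and it was also the lowest of the 6 for Rxra and Nr1i2.

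Of the steroid receptors, Nr3c2 was lower in every KO liver. Nr3c2 encodes the mineralocorticoid receptor, which binds aldosterone and glucocorticoids, and lies on chromosome 8 from 76899442 to 77245012. Its levels were 20.8, 17.1 and 23.3 CPM in WT, and 10.8, 12.1 and 16.3 CPM in KO replicates 1, 2 and 4. The highest KO library lay just under the lowest WT library. The log2 fold change was -0.64 (standard error 0.19, 95% interval -1.07 to -0.22, adjusted p = 0.454 by edgeR and 0.145 by DESeq2), a level of 0.641 times WT. Without KO replicate 4 it was -0.82, with an adjusted p of 0.0715 by edgeR and 0.00196 by DESeq2. Nr3c1, the glucocorticoid receptor gene, had 93.4 to 116 CPM in WT and 85.4 to 104 CPM in KO, with a log2 fold change of -0.14 (interval -0.44 to 0.16), or -0.23 without KO replicate 4. Esr1, the oestrogen receptor alpha gene, had 28.4 to 39.2 CPM in WT and 33.2 and 33.3 CPM in KO replicates 1 and 2, but 16.6 CPM in KO replicate 4. Its log2 fold change of -0.26 (interval -0.85 to 0.32) became 0.01 without that library.

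The orphan receptors held the largest positive difference of the 35 genes. Nr4a1 encodes NUR77, an immediate early gene product that is induced within a short time by many stimuli, and lies on chromosome 15 from 101254269 to 101274795. It had 1.23, 1.86 and 1.30 CPM in WT and 3.26, 4.20 and 2.30 CPM in KO replicates 1, 2 and 4. The lowest KO library was above the highest WT library. The log2 fold change was 1.15 (standard error 0.32, 95% interval 0.42 to 1.88, adjusted p = 0.420 by edgeR and 0.0980 by DESeq2), a level of 2.21 times WT (1.33 to 3.68). In the other 5 libraries it was 1.35 (adjusted p = 0.104 by edgeR and 0.0180 by DESeq2). Its relative Nr4a2 did not go with it: it had 0.725 to 0.844 CPM in WT, 0.918 CPM in KO replicate 1, and 0.371 and 0.274 CPM in KO replicates 2 and 4 (-0.61, interval -1.76 to 0.54, and -0.31 without KO replicate 4). Blood cells also express Nr4a1. Markers of neutrophils (9 genes) summed to 4.11 to 6.45 CPM in WT and 6.00 to 19.6 CPM in KO, and those of Kupffer cells and macrophages (10 genes) to 339 to 660 CPM in WT and 341 to 583 CPM in KO, and their part in the Nr4a1 difference was not tested.

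The remaining orphan receptors gave no called difference. Nr2f6 had 179, 183 and 168 CPM in WT and 139, 166 and 143 CPM in KO. Its highest KO library lay just below its lowest WT library, with a log2 fold change of -0.24 (95% interval -0.50 to 0.02, adjusted p = 0.759 by edgeR), and its exons share 1622 bases with Ocel1 on the opposite strand. For its relatives Nr2f1 and Nr2f2, the COUP transcription factors, the values were -0.78 (-1.95 to 0.39) at 0.285 to 1.49 CPM and 0.03 (-0.37 to 0.44). Nr2c1 and Nr2c2, the testicular receptors TR2 and TR4, had -0.15 and -0.04, and Nr6a1, the germ cell nuclear factor, had -0.03. Leaving out KO replicate 4 gave -1.34 for Nr2f1, -0.08 for Nr2f2, -0.31 for Nr2c1, -0.15 for Nr2c2 and -0.02 for Nr6a1. Rora, a receptor that drives clock genes, had 72.2, 89.1 and 73.7 CPM in WT, 77.3 and 70.9 CPM in KO replicates 1 and 2, and 117 CPM in KO replicate 4. Its log2 fold change of 0.18 became -0.07 without that library. Esrra, the oestrogen-related receptor of mitochondrial genes, had 0.17 (-0.13 to 0.47). The receptors of retinoic acid, which is made from vitamin A, gave 0.01 (-0.43 to 0.46) for Rara and -0.19 (-0.81 to 0.43) for Rarg, which without KO replicate 4 became -0.22 and -0.51.

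**Figure D4:**
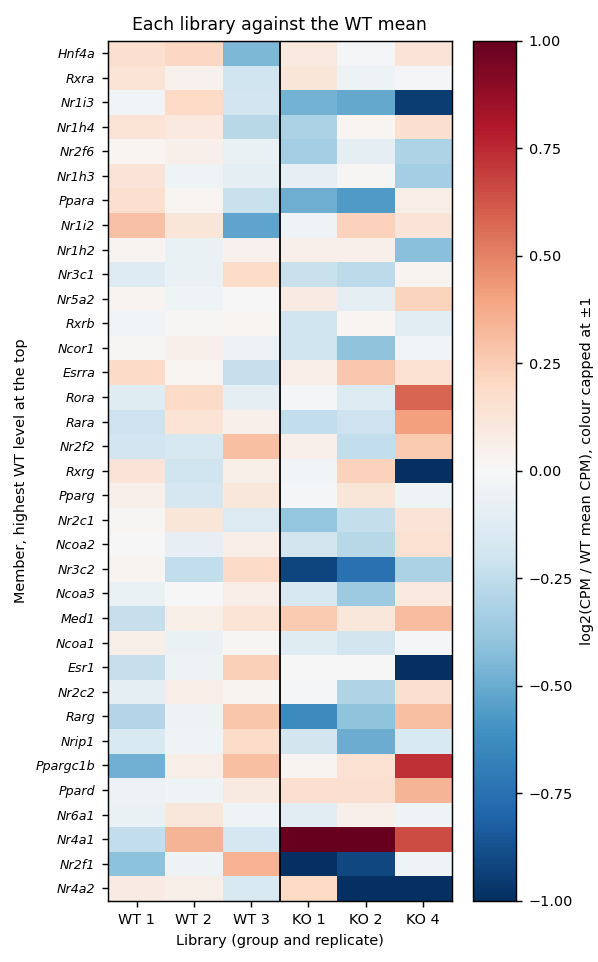
Level of each of the 35 tested genes in each library against the WT mean, as log2 of the CPM ratio (red higher, blue lower, colour capped at ±1), with the highest WT level at the top. KO replicates 1 and 2 are blue for Ppara, Nr1i3, Nr3c2 and Rarg and red for Nr4a1, while KO replicate 4 is the outermost library for 18 of the 35 genes.

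No coregulator was called. The 7 genes had log2 fold changes between -0.27 (Nrip1, the corepressor RIP140; 95% interval -0.61 to 0.07) and 0.34 (Ppargc1b; -0.27 to 0.94), with a median of -0.10 beside -0.07 for the 28 receptors tested. The p160 coactivator genes had -0.10 for Ncoa1, -0.09 for Ncoa2 and -0.13 for Ncoa3, with all 3 intervals within -0.44 to 0.21. Med1, a Mediator subunit that binds nuclear receptors, had 0.23 (-0.07 to 0.53). Leaving out KO replicate 4 gave -0.15, -0.22 and -0.25 for Ncoa1, Ncoa2 and Ncoa3, 0.19 for Med1, 0.10 for Ppargc1b and -0.33 for Nrip1. Ncor1 had 114 to 123 CPM in WT, 104 and 90.2 CPM in KO replicates 1 and 2, and 117 CPM in KO replicate 4, a log2 fold change of -0.20 (-0.49 to 0.08), or -0.29 (adjusted p = 0.333 by edgeR) without the last library. Without KO replicate 4, both corepressors and all 3 Ncoa genes were among the 14 genes whose KO levels were all under the WT levels. Of all genes, 15.6% were lower in this way, and neither edgeR nor DESeq2 called any of these coregulators in the 5 libraries. Over the 7 genes, the summed CPM was 126 to 139 in WT and 116 to 148 in KO for the 5 coactivators, and 135 to 141 in WT and 103 to 133 in KO for the 2 corepressors.

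Known targets of each receptor were set beside the RNA of the receptor itself, beginning with PPAR-alpha. Of 33 PPAR-alpha targets tested, 32 had negative values and 1 a positive value, with a median log2 fold change of -0.58 (-0.60 without KO replicate 4), against -0.00 for all genes and -0.30 for Ppara. By edgeR 0 of them were called over all genes, though 23 were lower at an unadjusted p under 0.05, against 3.48% of all genes. The calls by DESeq2 numbered 13, all lower, against 0.536% of all genes. Without KO replicate 4, edgeR called 10 lower and DESeq2 19, against 0.454% and 1.71% of all genes. Several of these targets were named by the study from the same libraries, so the list is not independent evidence. Set against the WT mean on the log2 scale, the median target was at -0.66, -0.48 and -0.68 in KO replicates 1, 2 and 4. The Ppara level of KO replicate 4, the library that stood apart in its Y-linked and female-biased genes, was 149 CPM, in the WT range. Whether the Ppara level bears on the target levels was not tested. Examples are the peroxisomal oxidation enzyme gene Ehhadh, with 1590, 1410 and 1190 CPM in WT and 377, 396 and 240 CPM in KO, and the aldehyde dehydrogenase gene Aldh3a2, with 825 to 941 CPM in WT and 335 to 466 CPM in KO. For the pantetheinase gene Vnn1 the levels were 155 to 207 CPM in WT and 39.8 to 65.1 CPM in KO. Acot1, a thioesterase gene with near-identical neighbours that may share its reads, had 166 to 288 CPM in WT and 30.5 to 69.3 CPM in KO.

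The median of the listed CAR and pregnane X receptor targets had the opposite sign to Nr1i3 and the same sign as Nr1i2. Of 13 genes induced through CAR or the pregnane X receptor, 10 had positive log2 fold changes. Their median was 0.21 (0.29 without KO replicate 4), beside -0.63 for Nr1i3 and 0.11 for Nr1i2. By edgeR 0 were called and 1 was higher at an unadjusted p under 0.05, against 3.7% of all genes. DESeq2 called 1 higher, against 0.523% of all genes. Both were Cyp3a13, a cytochrome P450 gene, with 158, 169 and 171 CPM in WT and 345, 243 and 208 CPM in KO (log2 fold change 0.68, adjusted p = 0.394 by edgeR and 0.0252 by DESeq2). On the 5 libraries without KO replicate 4, edgeR called 1, Cyp3a13 (0.83, adjusted p = 0.0495), against 0.355% of all genes higher. DESeq2 called 2, both higher, against 1.29% of all genes. The other was Cyp2b10, the classic CAR target, named here after its values were seen. It had 6.85, 8.93 and 3.80 CPM in WT, 17.3 and 21.6 CPM in KO replicates 1 and 2, and 0.549 CPM in KO replicate 4. Its log2 fold change was 1.01 (adjusted p = 0.904 by edgeR) with all libraries and 1.57 (adjusted p = 0.0553 by edgeR and 1.7e-05 by DESeq2) in the other 5. Cyp3a11, the main drug-metabolising enzyme of that family, had 1920 to 2540 CPM in WT and 2290 to 2750 CPM in KO. The glutathione transferase gene Gstm1 had 744 to 1200 CPM in WT and 1170 to 1580 CPM in KO, and Cyp2c55 had 0.652 to 3.35 and 2.53 to 6.55 CPM. These last 3 overlapped between groups.

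The targets of the farnesoid and liver X receptors divided between both signs. Of 9 farnesoid X receptor targets tested, 4 had positive and 5 negative values (median -0.11). The list holds genes that the receptor represses, such as Cyp7a1 and Cyp8b1, so these signs do not give the direction of its activity. By edgeR 0 were called and 2 were lower at an unadjusted p under 0.05, against 3.48% of all genes. DESeq2 called 1 lower, against 0.536% of all genes. With KO replicate 4 left out the median was -0.19. Both edgeR and DESeq2 then called 2 lower, Abcb4 and Osgin1, against 0.454% and 1.71% of all genes. Abcb4, the phospholipid exporter of bile, was lower, with 567, 529 and 545 CPM in WT and 351, 317 and 385 CPM in KO (log2 fold change -0.64, adjusted p = 0.187 by edgeR and 7.9e-04 by DESeq2). Its value in the other 5 libraries was -0.71 (adjusted p = 0.0311 by edgeR). Osgin1, an oxidative stress-induced gene named here after its values were seen, had 95.4, 104 and 153 CPM in WT, 29.5 and 46.8 CPM in KO replicates 1 and 2, and 239 CPM in KO replicate 4. Its log2 fold change of -0.16 became -1.61 (adjusted p = 0.0311 by edgeR and 3.9e-10 by DESeq2) with that library left out. Cyp7a1, the rate-limiting enzyme of bile acid synthesis, which the receptor represses, had 294, 226 and 234 CPM in WT and 148, 205 and 98.0 CPM in KO (-0.74, adjusted p = 0.0840 by DESeq2). Cyp8b1, also repressed by it, had 277 to 350 CPM in WT and 50.4, 161 and 306 CPM in KO replicates 1, 2 and 4. Of the 10 liver X receptor targets, 6 had positive and 4 negative values (median 0.03), 0 had an unadjusted p under 0.05 by edgeR and 0 were called by DESeq2; without KO replicate 4 the median was 0.01, with 0 calls by either tool. Mylip, Pltp, Srebf1 and Abca1, the 4 with the smallest p, all overlapped between groups.

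Glucocorticoid receptor targets had mostly positive differences, beside a log2 fold change of -0.14 for Nr3c1 itself. Of 12 targets, 11 had a positive value, with a median of 0.75, or 0.87 without KO replicate 4 and 0.44 without KO replicate 2. By edgeR 6 were higher at an unadjusted p under 0.05, against 3.7% of all genes. It called 0 with all libraries and 4 without KO replicate 4, where all genes gave 0% and 0.355% higher. DESeq2 called 1 and 5, against 0.523% and 1.29% of all genes. The median target was at 0.87, 0.79 and -0.15 relative to the WT mean in KO replicates 1, 2 and 4, and at -0.04, 0.35 and -0.56 in WT replicates 1, 2 and 3. KO replicate 4 thus lay within the WT libraries, of which WT replicate 3 was the lowest. Sds, the serine dehydratase gene of amino acid breakdown, had 199, 212 and 229 CPM in WT and 533, 419 and 249 CPM in KO (log2 fold change 0.91, adjusted p = 0.397 by edgeR and 0.00710 by DESeq2). Tsc22d3, which encodes the glucocorticoid-induced leucine zipper, had 73.3, 84.7 and 41.2 CPM in WT, 177 and 165 CPM in KO replicates 1 and 2, and 56.3 CPM in KO replicate 4. The transcription factor genes Klf9 and Zbtb16 had 125 to 148 and 4.42 to 10.9 CPM in WT, and 152 to 185 and 10.6 to 14.9 CPM in KO.

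Target lists of the other receptors had medians nearer to that of all genes. These were 0.11 for 14 HNF4-alpha targets and 0.04 for 6 retinoic acid receptor targets. They were 0.05 for 14 clock genes listed for ROR and REV-ERB, and -0.12 for 10 targets of ERR and PGC-1. The clock list includes Nr1d1 and Nr1d2, the REV-ERB genes themselves, and its median is not a measure of the activity of either receptor. None of these lists held a call by edgeR on all libraries. At an unadjusted p under 0.05 they held 2, 1, 1 and 1 genes, against 3.7% of all genes higher and 3.48% lower. DESeq2 called 1 gene lower in the first and 1 higher in the third, against 0.536% and 0.523% of all genes. Without KO replicate 4, the medians were 0.11, 0.06, -0.12 and -0.07. Then edgeR called Dio1 lower and Cyp2d9 higher, and 0 in the other lists. DESeq2 called both in the same directions, as well as Mttp lower (-0.47) among the HNF4-alpha targets, Rarres2 higher (0.43), Ciart and the clock activator gene Arntl (1.14) higher, and Acadm lower (-0.38). Arntl is named here after its value was seen. Dio1, the deiodinase that activates thyroid hormone, was that HNF4-alpha target, with 194, 179 and 227 CPM in WT and 58.1, 90.2 and 67.5 CPM in KO (log2 fold change -1.48, adjusted p = 0.0769 by edgeR). Cyp2d9 of the same list, a male-biased gene, had 18.5 to 43.8 CPM in 5 libraries and 1590 CPM in KO replicate 4. Ciart, a circadian repressor, was the clock gene, with 4.32, 6.04 and 4.20 CPM in WT and 7.57, 11.7 and 14.5 CPM in KO (1.21, adjusted p = 0.00183 by DESeq2). Rarres2, which encodes the adipokine chemerin, had 364 to 397 CPM in WT and 407 to 518 CPM in KO, and Acadm, a mitochondrial oxidation gene that is also in the PPAR-alpha list, had 574 to 595 and 361 to 452 CPM.

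**Figure D5:**
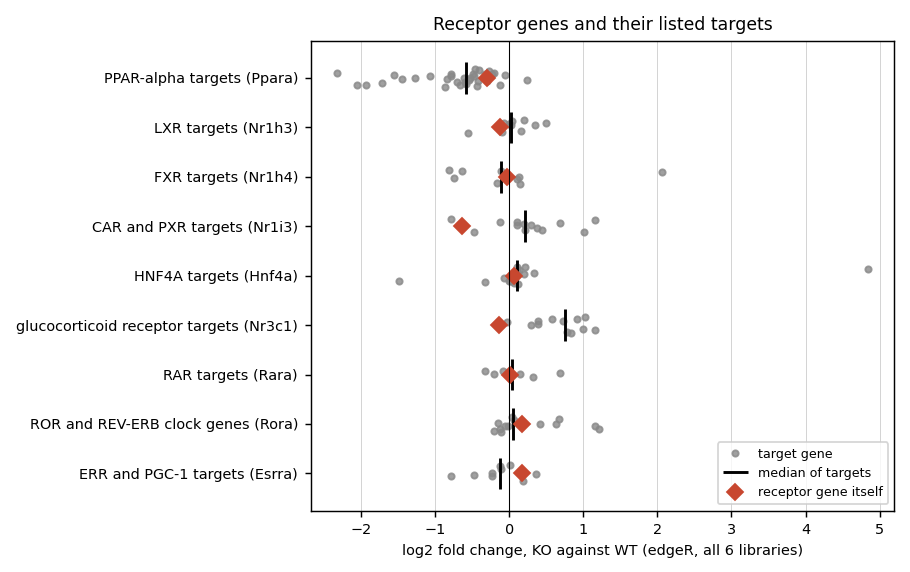
Log2 fold change of KO against WT (edgeR, all 6 libraries) for the listed targets of each receptor (grey points), their median (black line) and the receptor's own gene (red diamond). The PPAR-alpha targets centre on -0.58 with Ppara at -0.30, and the glucocorticoid receptor targets on 0.75 with Nr3c1 at -0.14. The CAR and PXR targets centre on 0.21 with Nr1i3 at -0.63, while Nr1i2, the PXR gene (0.11), is not drawn. The farnesoid X receptor list includes genes that the receptor represses.

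Nuclear receptors and coregulators outside the 37 were compared in the same way. Of 19 other receptor genes, 11 passed the filter, with a median log2 fold change of 0.07 (-0.03 without KO replicate 4). Thra, a thyroid hormone receptor gene, had 16.4, 10.5 and 16.3 CPM in WT and 19.1, 17.1 and 16.1 CPM in KO, and the groups overlapped. Of 27 other coregulator genes, all were tested, with a median of 0.06 (-0.01 without KO replicate 4) and 0 calls by either tool. At an unadjusted p under 0.05 by edgeR, 1 was higher and 1 lower, against 3.7% and 3.48% of all genes. Lpin1, a phosphatidate phosphatase that also acts with PGC-1-alpha and PPAR-alpha, had 162, 225 and 76.5 CPM in WT and 286, 425 and 247 CPM in KO (1.05, adjusted p = 0.571 by edgeR). Rcor1, a corepressor, had 27.3 to 29.0 CPM in WT and 21.4 to 25.5 CPM in KO (-0.29). Ppargc1a, the fasting-induced coactivator PGC-1-alpha, had 10.3, 11.6 and 12.4 CPM in WT and 17.4, 15.1 and 11.4 CPM in KO (0.36, adjusted p = 0.762 by edgeR), higher than every WT library in KO replicates 1 and 2 only.

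Markers of other liver cells are given because several receptors, among them Nr2f2, Rarg and Nr4a1, are also expressed outside hepatocytes. Stellate cell and fibroblast markers (10 genes) summed to 308 to 408 CPM in WT and 423 to 480 CPM in KO, so that the ranges of the sums were apart. Their median log2 fold change was 0.42, or 0.24 without KO replicate 4. Taken singly, 0 of the 10 had ranges apart, 0 were called by edgeR or DESeq2, and 7 had positive and 3 negative values. The largest part of the sum was Dcn, with 151 to 208 CPM in WT and 190 to 260 CPM in KO. Sinusoidal endothelial markers (10 genes) summed to 283 to 469 CPM in WT and 276 to 345 CPM in KO, with a median of -0.23. Cholangiocyte markers (8 genes) summed to 28.0 to 67.0 CPM in WT and 32.5 to 78.1 CPM in KO. T and NK cell markers (9 genes) summed to 7.10 to 8.37 CPM in WT and 4.70 to 13.2 CPM in KO. For B and plasma cell markers (8 genes) the sums were 307 to 339 CPM in WT and 227 to 401 CPM in KO. Most of that sum was 1 gene, Sdc1, with 284 to 301 CPM in WT and 217 to 376 CPM in KO. Ighm had 12.6 to 27.9 CPM in WT and 5.97 to 13.7 CPM in KO (log2 fold change -1.14), and the groups overlapped. Among the 8 genes, 3 had positive and 5 negative values. Red blood cell markers (6 genes) had 299 to 339 CPM in WT and 307 to 382 CPM in KO, adipocyte markers (6 genes) 5.78 to 13.5 and 4.97 to 8.06 CPM, and pancreatic acinar markers (6 genes) 5.78 to 10.4 and 6.55 to 13.0 CPM. Of the acinar markers, 2 were at 0 in every library. The part of these cells in the receptor levels was not tested.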

How the data were processed

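Polyadenylated liver RNA was sequenced by the authors as directional, single-end libraries, trimmed with Trimmomatic, aligned with STAR 2.5.0c to GRCm38.p5 (GENCODE M12) and counted with featureCounts. The strand setting was not given in the sources used here, and overlapping antisense genes can therefore share reads. The authors deposited whole-number counts of 49671 genes, not normalized. Symbols, positions and exon lengths came from GENCODE M21 (49412 IDs matched). Counts were filtered with filterByExpr, scaled by TMM and compared with glmQLFit and glmQLFTest of edgeR 4.0.16 (R 4.3.3), with Benjamini-Hochberg adjustment over 13773 genes; a call is an adjusted p under 0.05. Alternatives were DESeq2 1.42.0, limma-voom 3.58.1, other scalings, filters and dispersions, each library left out and a replicate block. DESeq2 was given all genes, and its default settings left an adjusted p for 14923 of them, or 13374 without KO replicate 4. Its shares of all genes refer to these numbers. The fits were tried on simulated data.

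The 37 genes and all other lists were chosen with earlier results of these data known. Values in every library are given for the PPAR and RXR genes and for genes with an unadjusted p under 0.05, ranges apart, or a call by DESeq2 or without KO replicate 4; of other lists up to 4 genes of smallest p are named, some of which are not reported here. The hepatocyte list held 10 symbols, 9 of them found. Upstream sequences are RefSeq, GRCm38.p6. No label says that libraries came from separate litters, so p-values measure the spread between these samples. No library pair was within sampling noise (chi-square divided by degrees of freedom 15.8 to 161).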

Additional observations from a re-analysis of the deposited data

How the results depend on the processing

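Over all genes, the calls (higher and lower) numbered 0 and 0 by edgeR, 78 and 80 by DESeq2, 1 and 4 by limma-voom, 69 and 67 with no filter on low counts, 3 and 6 with robust dispersions, 50 and 64 by edgeR and 173 and 229 by DESeq2 without KO replicate 4, and 0 and 0 under the other settings except the block. Of the 35 genes, DESeq2 called 1 lower, and DESeq2 without KO replicate 4 called 1 higher and 3 lower, with Ppara at -0.53. With any 1 library left out, edgeR called 0 of them in either direction, and Ppara ranged from -0.53 to -0.18. Replicate numbers 1 and 2 occur in both groups, but deviations from the group means correlated at -0.124 and 0.0259, so the numbers were not taken as pairs. With the number as a replicate block, edgeR called 220 genes higher and 248 lower, and 0 of the 35 higher and 3 lower (Ppara -0.63, Nr1i3 -0.57 and Nr3c2 -0.72). The block turned the sign of Rxra (-0.06), Rxrg (0.13), Rara (-0.20), Nr1h2 (0.07), Nr1i2 (-0.11), Hnf4a (-0.14), Nr5a2 (-0.01), Esr1 (0.14) and Rora (-0.12).

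Without TMM, Pparg (-0.00), Rxra (-0.01) and Rara (-0.01) changed sign, as did Rara (-0.02) by limma-voom. DESeq2 without KO replicate 4 turned Rxrg (0.11), Rara (-0.22), Nr1h2 (0.05), Nr5a2 (-0.00), Esr1 (0.01), Nr2f2 (-0.08) and Rora (-0.07). With each library left out in turn, the values that crossed 0 were those of Pparg (-0.05 to 0.08), Rxra (-0.07 to 0.10), Rxrg (-0.52 to 0.11), Rara (-0.22 to 0.13), Nr1h2 (-0.17 to 0.05), Nr1h4 (-0.15 to 0.10), Nr1i2 (-0.10 to 0.28), Hnf4a (-0.11 to 0.19), Nr5a2 (-0.00 to 0.15), Esr1 (-0.42 to 0.01), Nr2c2 (-0.15 to 0.08), Nr2f2 (-0.08 to 0.21), Nr6a1 (-0.08 to 0.02) and Rora (-0.07 to 0.31). The cause was not tested. Nr1i3 (-0.71 to -0.49), Nr3c2 (-0.82 to -0.51) and Nr4a1 (0.92 to 1.36) kept their sign. With 3 libraries per group an exact permutation test cannot give a two-sided p under 0.1, and Hnf4g and Vdr had too few counts to be tested.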

Other observations

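Immediate early genes, the class to which Nr4a1 belongs, were also measured. Of 12 such genes, 11 had positive log2 fold changes and the median was 0.56 (0.34 to 0.87 with each library left out). By edgeR 0 were called and 3 were higher at an unadjusted p under 0.05, against 3.7% of all genes. DESeq2 called 1 higher, against 0.523% of all genes. With KO replicate 4 left out, edgeR called 1 and DESeq2 2, against 0.355% and 1.29% of all genes higher. Set against the WT mean on the log2 scale, their median was 0.15, 0.81 and 0.28 in KO replicates 1, 2 and 4, and -0.27, 0.34 and -0.13 in WT replicates 1, 2 and 3, so that WT replicate 2 lay above 2 of the KO libraries. Btg2, an antiproliferative gene, had 6.98, 10.1 and 7.17 CPM in WT and 18.6, 25 and 12.1 CPM in KO (log2 fold change 1.20, adjusted p = 0.247 by edgeR and 0.00115 by DESeq2). Ier2 had 21.1 to 24.2 CPM in WT and 29.3 to 30.5 CPM in KO. Fos, a subunit of the AP-1 factor, had 0.520, 1.51 and 0.326 CPM in WT and 1.52, 4.67 and 0.857 CPM in KO, and Myc had 2.60 to 4.21 and 3.17 to 11.6 CPM.

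Acute phase genes, which respond to inflammatory cytokines and in part to glucocorticoids, had positive values in 14 of 14 cases. Their median was 0.53 (0.61 without KO replicate 4). By edgeR 0 were called and 13 were higher at an unadjusted p under 0.05, against 3.7% of all genes. DESeq2 called 8, against 0.523% of all genes higher. With KO replicate 4 left out, edgeR called 3 and DESeq2 11, against 0.355% and 1.29% of all genes higher. Fga, a fibrinogen chain, had 3560, 3840 and 3690 CPM in WT and 5800, 5680 and 5910 CPM in KO, and its companion Fgb 3840 to 4110 and 5490 to 5560 CPM. Saa1 had 13.9 to 22.4 CPM in WT and 40.3 to 73.2 CPM in KO, and Lcn2 4.79 to 5.72 and 8.47 to 31.1 CPM. Some of these genes were named by the study from the same libraries.

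Sex-biased liver genes also differed in KO replicates 1 and 2. On the same scale, the female-biased genes had their median at -1.27 and -0.78 in KO replicates 1 and 2 and at -8.77 in KO replicate 4, and that of the male-biased genes at -1.16, -0.84 and 4.74. A1bg, a female-biased gene, had 245, 404 and 633 CPM in WT, 54.7 and 56.9 CPM in KO replicates 1 and 2, and 0.240 CPM in KO replicate 4. Esr1 was lowest in KO replicate 4, at 16.6 CPM.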
